A study of Mus musculus with 36 samples.

Results

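The corticosteroid receptors and the proteins that govern how they meet their hormone were followed in cultured mouse cortical cells through 9 genes: Nr3c1, Nr3c2, Crhr1, Hsd11b1, Fkbp4, Ptges3, Hsp90aa1, Hsp90ab1 and Stip1. The members were the genes of the count table whose GENCODE symbol is one of these names, and all 9 were found among 55487 mouse genes. All 9 also had a mean count above 5, the filter that left 20355 genes for testing. Cells dissociated from the cortex at embryonic day 18 (source name C57EDCX), for which the labels name no genetic change, were grown in 3 groups. Control cultures received fresh medium, DEX cultures received 1 µM dexamethasone, a synthetic glucocorticoid, and DEX + RU-486 cultures received 1 µM dexamethasone with 1 µM RU-486 (mifepristone), an antagonist of the glucocorticoid receptor. Treatment lasted 72 h, and each group gave 12 RNA-seq libraries, 6 in each of 2 batches. No group received RU-486 alone, so an action of RU-486 by itself cannot be told apart from its action against DEX. The labels do not say that replicates came from separate cultures or animals, so p-values measure the spread between these libraries, which may be technical.

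Glucocorticoids enter cells and bind 2 nuclear receptors, the glucocorticoid receptor and the higher-affinity mineralocorticoid receptor, both of which are expressed in cortical and hippocampal neurons. An unliganded receptor is not free: HSP70 and HSP40 proteins first bind it, the adaptor STIP1 (also called HOP) passes it on to an HSP90 dimer, and the co-chaperone p23 (gene Ptges3) and an immunophilin such as FKBP52 (gene Fkbp4) complete a complex that can bind hormone. After hormone binding, FKBP52 couples the complex to transport towards the nucleus. HSP90 genes and other heat shock genes are classically induced by heat shock factors, which bind repeats of the unit NGAAN.

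The libraries differed in RNA quality and depth, and these differences stand beside the results below. Depth ranged from 12.1 to 82.4 M (mega) counts. In batch 1 the RNA integrity number (RIN, highest for intact RNA) was 7.8 to 9.2 in control, 3.9 to 7.8 in DEX and 5.6 to 7.9 in DEX + RU-486, and the control libraries were also the deepest (24.2 to 82.4 M counts against 12.1 to 22.3 M in DEX and 17.4 to 26.7 M in DEX + RU-486), so RIN, depth and treatment cannot be told apart there. Batch 2 held 2 libraries of RIN below 3 in each group. In all, 28 of 36 libraries had a RIN of 6 or above. The summed level of 9 neuron markers was 2497 to 3265 CPM (counts scaled to library size) in batch 1 control, 1856 to 2815 CPM in DEX and 2088 to 2842 CPM in DEX + RU-486, and 6 of the 9 fell with DEX and 4 with DEX + RU-486. That of 7 oligodendrocyte lineage markers was 59.2 to 272 CPM in batch 1 control, 458 to 2082 CPM in DEX and 211 to 896 CPM in DEX + RU-486, and 5 rose with DEX and 3 with DEX + RU-486. Of 4 markers of dividing cells, which summed to 2.43 to 12.6 CPM in batch 1 control, 8.15 to 60.7 CPM in DEX and 6.87 to 64.0 CPM in DEX + RU-486, 3 rose with each treatment (list medians 1.68 and 1.84). Astrocyte markers rose in 2 of 6 with DEX and 1 with DEX + RU-486 (summed 28.1 to 43.5 CPM in control, 28.9 to 58.9 and 29.2 to 50.1 CPM in the treated groups). Endothelial markers rose in 0 of 4 and 2 of 4 (0.601 to 2.18, 0.988 to 6.19 and 1.41 to 13.1 CPM), and fibroblast and mural markers in 1 and 0 of 4 tested (1.18 to 3.28, 0.576 to 9.23 and 1.51 to 8.19 CPM). These counts stand against 8.99% of all genes higher and 9.99% lower with DEX in batch 1, and 6.92% higher and 8.46% lower with DEX + RU-486, and nothing is read from a single call in a list. Microglia markers summed to at most 6.31 CPM, with Tmem119 at 0 in 22 libraries. Fewer cells of a type and less RNA per cell cannot be told apart in these bulk libraries. As a check of the treatment, the glucocorticoid-induced genes Per1 (log2 fold change 0.80, adjusted p = 0.0082) and Tsc22d3 (0.67, adjusted p = 0.035) rose with DEX in batch 1, while Klf9 and Errfi1 did not pass the test. With DEX + RU-486 in batch 1, Per1 rose as well (0.75, adjusted p = 0.016), Tsc22d3 stood at 0.61 (adjusted p = 0.060), and none of the 4 genes passed between DEX + RU-486 and DEX. None of the 4 passed in any treatment contrast over all libraries of batch 2.

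Differences were tested on counts with edgeR's quasi-likelihood test, and an adjusted p is Benjamini-Hochberg adjusted over all 20355 genes. Each log2 fold change is given with its standard error (SE), and a gene was called at an adjusted p under 0.05. Levels of the 9 genes spanned a wide range. Per kilobase of exon, the median over 36 libraries was 477 CPM for Hsp90ab1 and 178 CPM for Hsp90aa1. Ptges3 (43.1 CPM per kb), Fkbp4 (37.2) and Stip1 (31.2) lay lower, and their ranges over libraries overlapped. Nr3c1 (1.38 CPM per kb), Nr3c2 (1.37) and Crhr1 (1.28) lay lowest among the clearly detected genes, again with overlapping ranges. Hsd11b1 was close to the detection limit, at 0.0949 CPM per kb. Without a scale of length, CPM values below compare libraries for a gene and not genes with each other.

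**Figure D1:**
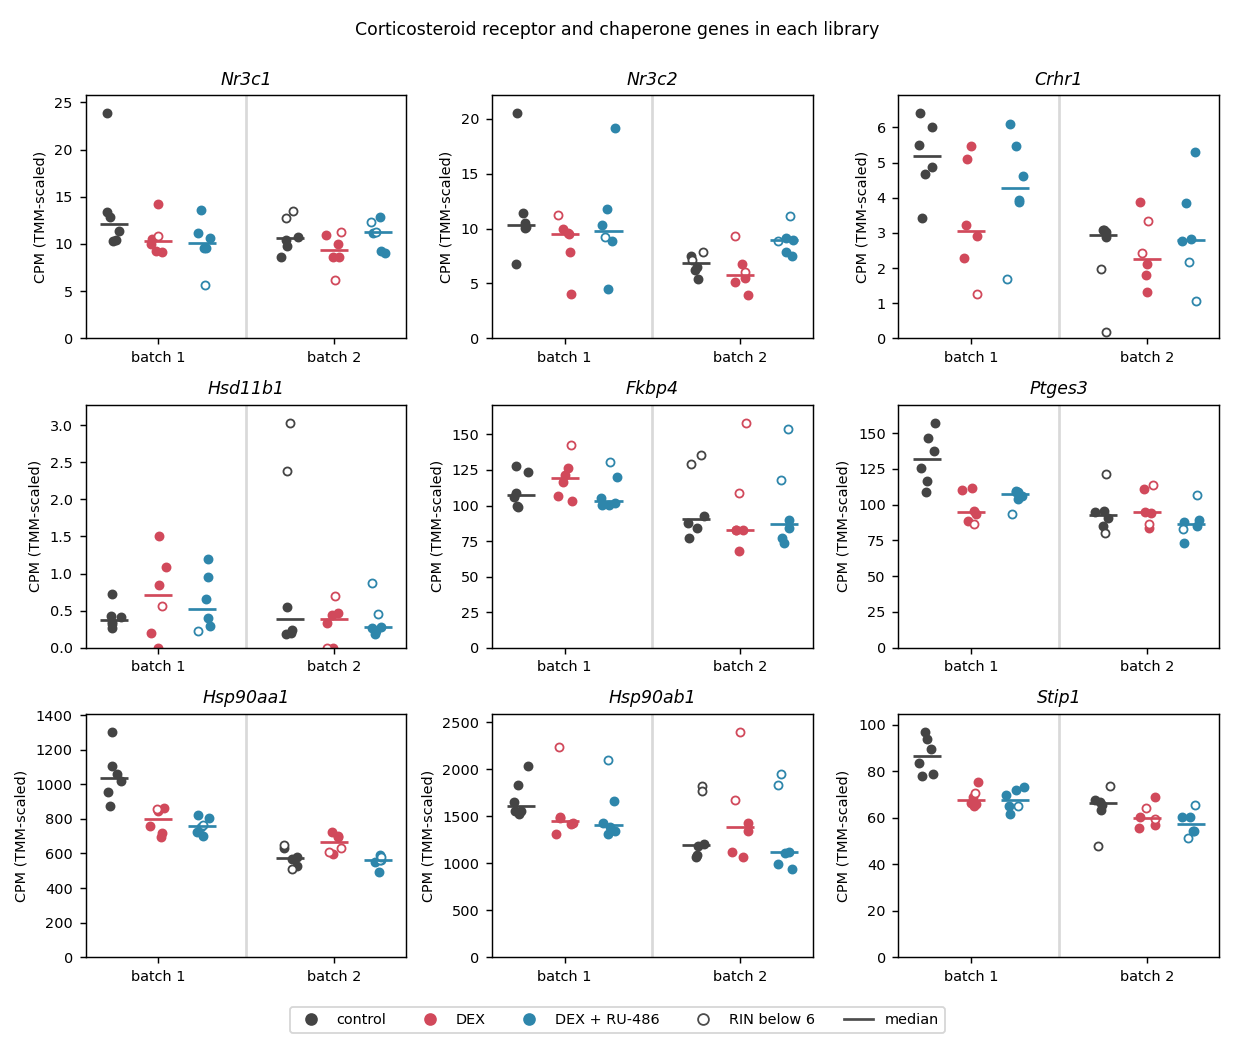
Normalised level of each of the 9 genes (TMM-scaled CPM, linear axes from 0, a panel for each gene) in every library, by batch and treatment, with open points for RIN below 6 and a line at the median. The 6 batch 1 control libraries of Hsp90aa1 (872 CPM and above) and Stip1 (77.9 CPM and above) lie above all others of those genes. The same held for 1.95% of all genes.

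Nr3c2 (ENSMUSG00000031618), the gene of the mineralocorticoid receptor, lies on the + strand at chr8:76899442-77245012 (GRCm38). In batch 2 it measured 5.43 CPM in the lowest control library, 6.83 at the median and 7.85 in the highest. DEX libraries of that batch ran from 3.94 through 5.75 to 9.28 CPM, and DEX + RU-486 libraries from 7.47 through 8.91 to 11.2 CPM. The last group was thus the highest at each of these points, with overlap of both other groups. The log2 fold change of DEX + RU-486 against DEX was 0.54 ± 0.19 (SE) in batch 2, with an unadjusted p of 0.0093 that did not survive adjustment over all genes (adjusted p = 1.00; no gene of 20355 was called, 0% of those tested, by edgeR or DESeq2, and 443 had an unadjusted p below 0.05). Among the libraries with RIN of 6 or above, all 4 DEX + RU-486 libraries of batch 2 (7.47 to 9.18 CPM) lay above all 4 DEX libraries (3.94 to 6.80 CPM), as did 4.47% of all genes, and the log2 fold change was 0.65 ± 0.17 (adjusted p = 0.061). In batch 1 the groups overlapped widely, from 6.79 to 20.5 CPM in control, 4.07 to 11.2 CPM in DEX and 4.46 to 19.2 CPM in DEX + RU-486, and no contrast passed the test.

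The promoter of Nr3c2 is shown because Nr3c2 was separated between DEX + RU-486 and DEX in the batch 2 libraries of RIN 6 or above and because glucocorticoid and heat shock factor motifs can be looked for in it. The sequence is RefSeq's, at chr8:76902080-76902379 of GRCm38.p6 on the + strand, and covers 250 bases before and 50 bases from a start site that lies 2888 bases from the GENCODE gene start. Capitals mark GAANNTTC, an inverted pair of the heat shock unit, here at position -151 from the start site.
Nr3c2: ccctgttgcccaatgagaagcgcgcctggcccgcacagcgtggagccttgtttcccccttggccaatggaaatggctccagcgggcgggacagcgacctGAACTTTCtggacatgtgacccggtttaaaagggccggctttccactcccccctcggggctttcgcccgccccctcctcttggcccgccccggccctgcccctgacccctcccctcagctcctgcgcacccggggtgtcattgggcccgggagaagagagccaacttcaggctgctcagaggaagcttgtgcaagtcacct
GAANNTTC was present in 7.86% of 32851 RefSeq promoters of the same length and the other pairing, TTCNNGAA, in 8.52%; 15.1% held at least 1 of them. Both are their own reverse complement and were searched alongside 3 adjoining heat shock units (0.603% of promoters), the single glucocorticoid receptor hexamer AGAACA on both strands (19% of promoters) and the full palindromic glucocorticoid receptor element (0.00913%). RefSeq promoters were searched for 6 of the 9 genes, and not for Nr3c1, Hsp90aa1 and Hsp90ab1. Neither AGAACA, the palindrome nor 3 adjoining units was in any of these 6 windows.

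Nr3c1 (ENSMUSG00000024431, - strand, chr18:39410545-39519421), the glucocorticoid receptor gene and so the receptor that DEX binds, changed less than the libraries spread. In batch 1 control it measured 10.4 CPM in the lowest library, 12.1 at the median and 23.8 in the highest. DEX libraries ran from 9.15 through 10.3 to 14.2 CPM, and DEX + RU-486 libraries from 5.62 through 10.1 to 13.6 CPM. The 3 groups overlapped, and the highest control library was replicate 1. On the log2 scale the difference from control was -0.33 ± 0.21 with DEX (adjusted p = 0.28) and -0.43 ± 0.21 with DEX + RU-486 (adjusted p = 0.17). Without control replicate 1 these values were -0.12 and -0.21. In batch 2 the medians were 10.6 CPM in control, 9.33 CPM in DEX and 11.2 CPM in DEX + RU-486, with a log2 fold change of -0.22 ± 0.16 with DEX. That value ran from -0.28 to -0.13 when each library was left out in turn. Among batch 2 libraries of RIN 6 or above the means were 9.89 CPM in control and 9.55 CPM in DEX. Over both batches the DEX value was -0.30 ± 0.14, with an unadjusted p of 0.033 and an adjusted p of 0.25, and -0.18 without control replicate 1.

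Crhr1 (ENSMUSG00000018634, + strand, chr11:104132855-104175523) encodes the main receptor for corticotropin-releasing hormone, the peptide that starts the stress axis upstream of glucocorticoid release. Batch 1 control libraries measured 3.43, 5.19 and 6.40 CPM at the lowest, median and highest. DEX libraries measured 1.26, 3.06 and 5.46 CPM, and DEX + RU-486 libraries 1.69, 4.29 and 6.08 CPM. Control and DEX overlapped, and the log2 fold change of -0.58 ± 0.30 did not pass the test (adjusted p = 0.18). With RIN as a covariate its sign turned, again without passing the test. In batch 2 the medians were 2.95, 2.26 and 2.80 CPM in control, DEX and DEX + RU-486, and 1 control library, of RIN 2.7, had 3 counts (0.178 CPM). Counts of this gene ran from 3 to 667 per library, so counting error adds to its spread.

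Hsd11b1 (ENSMUSG00000016194, - strand, chr1:193221634-193264075), the enzyme that regenerates active glucocorticoid from its inert 11-keto form, had 0 to 51 counts per library and was at 0 in 3 DEX libraries. Its batch 1 medians were 0.380 CPM in control, 0.706 CPM in DEX and 0.529 CPM in DEX + RU-486, with a log2 fold change of 0.80 ± 0.59 for DEX (adjusted p = 0.37). With each library left out in turn, this value ran from 0.41 to 1.05. In batch 2 the fold change was -1.69 ± 0.92 (unadjusted p = 0.081), and 0.09 ± 0.78 with libraries of RIN 6 or above. Leaving out each batch 2 library in turn gave -2.01 to -1.02. The 2 batch 2 control libraries of RIN below 3 measured 3.03 and 2.38 CPM, and the other 4 ran from 0.187 to 0.548 CPM. The gene rose in the RIN below 3 libraries of batch 2 (log2 fold change 1.78 ± 0.66, adjusted p = 0.026). It overlaps Lamb3 on the opposite strand (mean count 12.1), and since strandedness of the counting is not stated, reads of these genes may not be separable.

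Hsp90aa1 (ENSMUSG00000021270, - strand, chr12:110690605-110702728), the stress-inducible form of cytosolic HSP90, fell in both treated groups of batch 1. Control libraries measured 872 CPM at the lowest, 1039 at the median and 1302 at the highest. DEX libraries ran from 696 through 801 to 864 CPM, and DEX + RU-486 libraries from 698 through 760 to 820 CPM. All 6 control libraries thus lay above all 12 treated ones. The log2 fold change was -0.38 ± 0.11 with DEX (adjusted p = 0.016) and -0.45 ± 0.11 with DEX + RU-486 (adjusted p = 0.0092). Between DEX + RU-486 and DEX the difference was -0.07 ± 0.11 (adjusted p = 1.00). These comparisons share the control libraries, and with RIN as a covariate the value with DEX was -0.44 and did not pass (adjusted p = 0.077). Groups that did not overlap, with the treated group lower, were found for 6.66% of all genes with DEX and 5.16% with DEX + RU-486.

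In batch 2 the order of Hsp90aa1 was another. Control libraries measured 508, 573 and 646 CPM at the lowest, median and highest, DEX libraries 594, 664 and 722 CPM, and DEX + RU-486 libraries 490, 563 and 590 CPM. The 6 DEX libraries lay above the 6 DEX + RU-486 libraries, a separation in that direction that 0.0491% of all genes showed, yet the log2 fold change of -0.26 ± 0.11 (unadjusted p = 0.035) did not pass after adjustment. DEX against control gave 0.21 ± 0.11 (unadjusted p = 0.077). With libraries of RIN 6 or above the values were -0.31 ± 0.083 (adjusted p = 0.064; no overlap, as for 3.93% of all genes in that direction) and 0.25 ± 0.083 (adjusted p = 0.14). The 6 batch 1 control libraries lay above all the other 30 libraries (highest 864 CPM), as they did for 1.95% of all genes. Processed copies could take up part of the reads: 5 pseudogenes resembled the Hsp90aa1 transcript and summed to 2.57% of its mean count.

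Hsp90ab1 (ENSMUSG00000023944, - strand, chr17:45567775-45573271), the constitutive form, did not pass the test in any treatment contrast. In batch 1 control it measured 1529, 1607 and 2042 CPM at the lowest, median and highest. DEX libraries measured 1311, 1455 and 2241 CPM, and DEX + RU-486 libraries 1315, 1407 and 2096 CPM. The highest value of each treated group came from its library of lowest RIN (3.9 and 5.6). Log2 fold changes were -0.08 ± 0.15 with DEX and -0.12 ± 0.15 with DEX + RU-486, and with libraries of RIN 6 or above -0.19 ± 0.099 (adjusted p = 0.18) and -0.20 ± 0.099 (adjusted p = 0.19). Without the library of RIN 3.9 all DEX libraries (up to 1498 CPM) lay below all control libraries, as did 7.54% of all genes.

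The 2 HSP90 genes differed in how their levels stood with RIN. In batch 2, 55.2% of all genes differed between libraries of RIN below 3 and of 6 or above, with treatment as a covariate (28.4% higher in the degraded libraries), and 3 of the 9 members did, all higher. Hsp90ab1 rose by 0.73 ± 0.089 on the log2 scale (adjusted p = 6.3e-07) and Fkbp4 by 0.69 ± 0.087 (adjusted p = 9.8e-07), and the third was Hsd11b1. Cell type markers differed between these libraries too, higher for 4 of 4 markers of dividing cells (median log2 fold change 1.73), 3 of 4 tested fibroblast and mural (2.12), 3 of 4 endothelial (2.07), 2 of 3 tested microglia (2.44), 4 of 6 astrocyte (1.20) and 6 of 7 oligodendrocyte lineage markers (0.95), and for neuron markers higher in 4 and lower in 5 of 9 (-0.46). Their part in the differences by RIN was not tested. For Hsp90aa1 the value was -0.04 ± 0.078, for Stip1 -0.03 ± 0.090 and for Ptges3 0.10 ± 0.095, none past the test. The log2 ratio of Hsp90aa1 to Hsp90ab1 counts was -1.98 to -1.39 in the 8 libraries of RIN below 6 and -1.05 to -0.55 in the 28 others, without overlap. Among intact libraries the batch 1 control group had the highest median ratio, -0.69, against -0.98 in DEX and -0.90 in DEX + RU-486. In batch 2 the control group had the lowest, -0.98, against -0.90 in DEX and -0.93 in DEX + RU-486, with overlapping ranges.

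**Figure D2:**
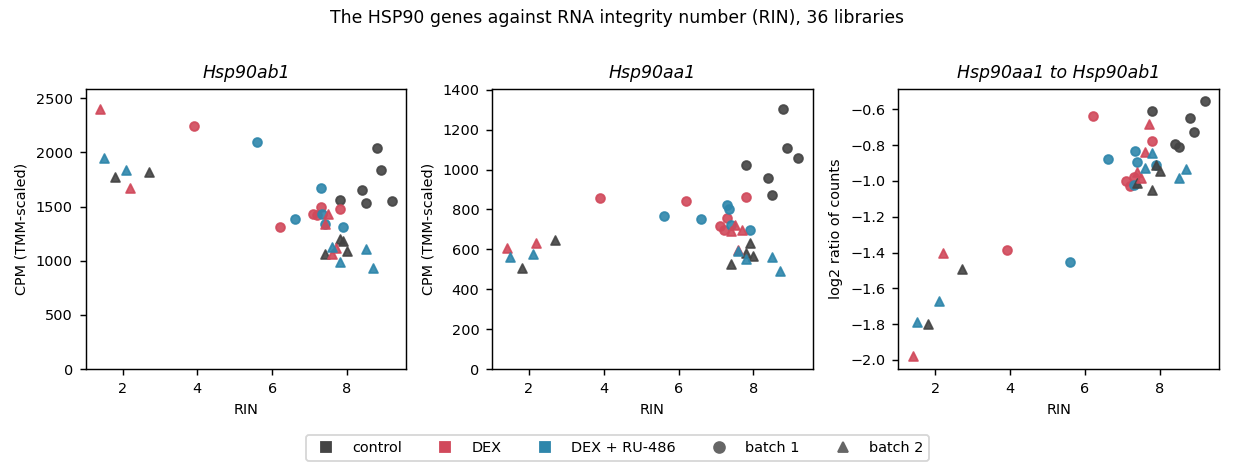
TMM-scaled CPM of Hsp90ab1 and Hsp90aa1 and the log2 ratio of their counts against RIN, each point a library, coloured by treatment and shaped by batch. The log2 ratio of Hsp90aa1 to Hsp90ab1 lies at -1.39 or below in the 8 libraries of RIN below 6 and at -1.05 or above in the other 28.

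Ptges3, Stip1 and Fkbp4 encode co-chaperones of the receptor complex. In batch 1, 3 of the 9 members fell with DEX and the same 3 with DEX + RU-486: Hsp90aa1, Ptges3 and Stip1. None rose. With RIN as a covariate, a fit chosen after seeing the data, 0 members passed with DEX (Hsp90aa1 -0.44, adjusted p = 0.077; Stip1 -0.37, adjusted p = 0.070; Ptges3 -0.28, adjusted p = 0.24), and 2 passed with DEX + RU-486, without Ptges3 (-0.21, adjusted p = 0.31). Over all genes, 19% were called with DEX (9.99% lower) and 15.4% with DEX + RU-486 (8.46% lower), so calls were common in this batch. No member and no gene was called between DEX + RU-486 and DEX in batch 1 (0% by edgeR, 833 genes at an unadjusted p below 0.05, and 2 genes by DESeq2).

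Stip1 (ENSMUSG00000024966, - strand, chr19:7020702-7039967), the adaptor between HSP70 and HSP90, measured 77.9, 86.5 and 96.8 CPM at the lowest, median and highest in batch 1 control. DEX libraries measured 64.9, 67.7 and 75.2 CPM, and DEX + RU-486 libraries 61.8, 67.5 and 73.3 CPM. As for Hsp90aa1, no treated library reached a control library of the batch, and none of the other 30 libraries did. Within the batch, 6.66% of all genes lay lower without overlap with DEX and 5.16% with DEX + RU-486. Against the other 30 libraries, the batch 1 control libraries lay above for 1.95% of all genes. Its log2 fold change was -0.30 ± 0.086 with DEX (adjusted p = 0.017) and -0.33 ± 0.086 with DEX + RU-486 (adjusted p = 0.013). In batch 2 the medians were 66.2, 59.9 and 57.2 CPM in control, DEX and DEX + RU-486, and the log2 fold changes of -0.06 ± 0.12 and -0.15 ± 0.12 did not pass. The lowest batch 2 control library, 47.6 CPM, had a RIN of 1.8. With libraries of RIN 6 or above, all DEX + RU-486 libraries of batch 2 (54.1 to 60.3 CPM) lay below all control libraries (63.1 to 67.7 CPM), as did 4.11% of all genes, at -0.19 ± 0.080 (adjusted p = 0.62). A stretch of 171 bases of its transcripts matched a retained-intron transcript of Cfap20 at 99.4% identity. Cfap20 as a whole had 44.7% of the mean count of Stip1, and how many reads fell in the shared stretch was not measured.

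Ptges3 (ENSMUSG00000071072, + strand, chr10:128058954-128077272), which encodes p23, the co-chaperone that stabilises the ATP-bound HSP90 dimer, measured 109, 132 and 157 CPM at the lowest, median and highest in batch 1 control. DEX libraries measured 86.5, 94.8 and 111 CPM, and DEX + RU-486 libraries 93.7, 107 and 110 CPM. The highest library of each treated group just exceeded the lowest control library. The log2 fold change was -0.40 ± 0.10 with DEX (adjusted p = 0.0088) and -0.31 ± 0.10 with DEX + RU-486 (adjusted p = 0.042), the latter past the threshold in 10 of 18 fits that each left out 1 library and not with libraries of RIN 6 or above (-0.25 ± 0.095, adjusted p = 0.082). In batch 2 the medians were 92.8, 94.7 and 86.6 CPM, and the log2 fold change with DEX was 0.06 ± 0.13. A pseudogene, Ptges3-ps, matched the transcript along 480 bases without a mismatch, and such copies summed to 3.94% of the mean count of Ptges3.

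Fkbp4 (ENSMUSG00000030357, - strand, chr6:128429735-128438677), the FKBP52 gene, did not pass in any treatment contrast. Batch 1 medians were 108 CPM in control (99.1 to 128), 119 CPM in DEX (103 to 143) and 103 CPM in DEX + RU-486 (100 to 131), with overlap of all groups. The log2 fold change was 0.14 ± 0.10 with DEX and 0.01 ± 0.10 with DEX + RU-486. With RIN as a covariate both signs turned, and neither value passed the test. In batch 2, libraries of RIN below 6 measured 109 to 158 CPM and those of 6 or above 68.0 to 92.7 CPM. The RIN classes of that batch did not overlap, whereas its treatment groups did. Of all genes, 55.2% differed there between libraries of RIN below 3 and of 6 or above, and nothing particular to Fkbp4 is read from this separation.

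Promoters of the 3 co-chaperone genes are shown because 2 of them fell in batch 1 and Fkbp4 did not, so that the windows can be read side by side. All are RefSeq's on GRCm38.p6, from 250 bases before to 50 bases from the start site, with GAANNTTC in capitals: Fkbp4 at chr6:128438607-128438906 on the - strand, Ptges3 at chr10:128058732-128059031 on the + strand and Stip1 at chr19:7039977-7040276 on the - strand.
Fkbp4: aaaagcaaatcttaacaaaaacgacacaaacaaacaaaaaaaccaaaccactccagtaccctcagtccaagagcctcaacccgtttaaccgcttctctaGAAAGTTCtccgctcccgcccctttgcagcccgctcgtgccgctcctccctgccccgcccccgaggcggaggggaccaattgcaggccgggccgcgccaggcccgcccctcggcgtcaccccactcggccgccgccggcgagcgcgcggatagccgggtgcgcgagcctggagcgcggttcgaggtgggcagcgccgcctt
Ptges3: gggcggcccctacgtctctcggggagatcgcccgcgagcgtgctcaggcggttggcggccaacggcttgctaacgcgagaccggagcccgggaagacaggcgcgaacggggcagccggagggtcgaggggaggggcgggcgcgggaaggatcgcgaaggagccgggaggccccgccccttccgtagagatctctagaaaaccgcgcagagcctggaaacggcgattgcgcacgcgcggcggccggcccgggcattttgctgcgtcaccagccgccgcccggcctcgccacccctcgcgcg
Stip1: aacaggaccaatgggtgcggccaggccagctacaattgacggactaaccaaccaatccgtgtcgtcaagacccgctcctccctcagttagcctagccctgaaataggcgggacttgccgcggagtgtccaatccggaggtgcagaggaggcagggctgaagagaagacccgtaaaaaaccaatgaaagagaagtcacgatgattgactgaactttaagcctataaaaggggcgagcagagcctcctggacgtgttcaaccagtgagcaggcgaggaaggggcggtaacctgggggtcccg
The window of Fkbp4 held GAANNTTC at position -151, and those of Ptges3 and Stip1 held neither pairing. Their GC content was 65.3% for Fkbp4, 73.7% for Ptges3 and 56.3% for Stip1, against a median of 52.7% over all promoters in the table. A match or its absence in such a window is a description and shows no binding.

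Over both batches, with batch as a covariate, no member was called in any contrast by edgeR, and 1, Stip1 in DEX + RU-486 against control, by DESeq2 (0.594% of all genes). For DEX against control 5 genes were called (0.0246% of those tested), and none for DEX + RU-486 against control or against DEX (0% each by edgeR). At an unadjusted p below 0.05, 3 of the 9 members stood with DEX against 16.9% of all genes, 3 with DEX + RU-486 against 10.8%, and 1 between the treated groups against 2.68%. Stip1 had the smallest p of the members in both comparisons with control, at -0.21 ± 0.069 with DEX (unadjusted p = 0.0048, adjusted p = 0.12) and -0.26 ± 0.069 with DEX + RU-486 (unadjusted p = 0.00065, adjusted p = 0.15). With the 28 libraries of RIN 6 or above, Stip1 fell with DEX (-0.25, adjusted p = 0.0051, with 19.7% of all genes called), and Stip1 (-0.28, adjusted p = 0.0052) and Hsp90aa1 (-0.32, adjusted p = 0.031) fell with DEX + RU-486 (8.86% called).

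The DEX response was then compared between batches by an interaction term. Hsp90aa1 showed the widest gap of the 5 chaperones and cochaperones among the members, 0.61 ± 0.14 on the log2 scale for batch 2 minus batch 1 (unadjusted p = 0.00014), which missed the threshold after adjustment (adjusted p = 0.064; 0.172% of all genes called, no member). Ptges3 followed with 0.47 ± 0.16 (adjusted p = 0.17). With libraries of RIN 6 or above the difference passed for both, at 0.69 for Hsp90aa1 (adjusted p = 0.0056) and 0.49 for Ptges3 (adjusted p = 0.037), and 4.25% of all genes were called. For DEX + RU-486 against control the gap of Hsp90aa1 was 0.42 ± 0.14 (adjusted p = 0.21; 0.0835% called). Over all libraries of batch 2 no gene was called in any treatment contrast (0%; 446 genes at an unadjusted p below 0.05 for DEX and 182 for DEX + RU-486 against control, and none by DESeq2). With RIN as a covariate in batch 1, where no member passed with DEX, 2.78% of all genes were called, and Hsp90aa1 (-0.49, adjusted p = 0.033) and Stip1 (-0.38, adjusted p = 0.039) still fell with DEX + RU-486 (2.60% called). The part of RIN, depth and the cell types whose markers are given above (neuron, oligodendrocyte lineage, dividing, astrocyte, endothelial, fibroblast and mural) in the batch 1 differences was not tested beyond these fits.

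**Figure D3:**
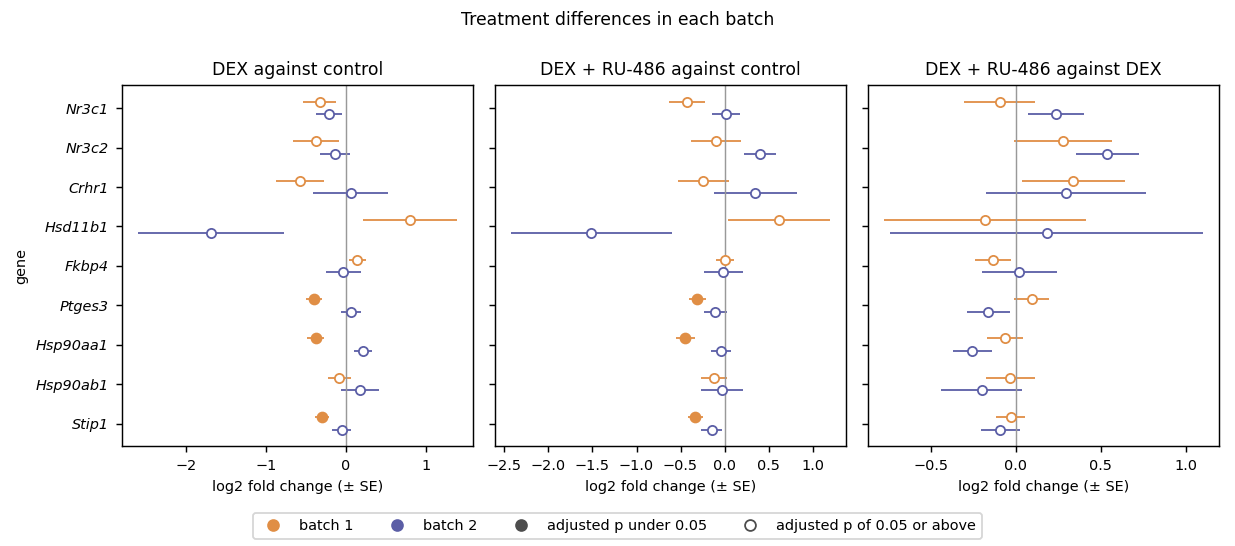
Log2 fold change of each gene with its standard error, by contrast (panels, each with its own axis) and batch (colour), from edgeR, filled where the adjusted p is under 0.05. Hsp90aa1 lies at -0.38 in batch 1 and at 0.21 in batch 2 for DEX against control, and the bars of Hsd11b1 and Crhr1 are the widest.

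Other genes of the receptor pathway were counted from fixed lists. Of 20 genes of the HSP70 and HSP90 machinery, 3 rose and 6 fell with DEX in batch 1, where 8.99% of all genes rose and 9.99% fell. With DEX + RU-486, 2 rose and 5 fell, where 6.92% of all genes rose and 8.46% fell. Those that fell were the HSP40 co-chaperones Dnaja1 (log2 fold change -0.64 with DEX) and Dnaja2 (-0.44), the constitutive HSP70 Hspa8 (-0.54), the nucleotide exchange factors Hsph1 (-0.72) and Hspa4 (-0.32), and, with DEX, St13 (-0.31), an HSP70-binding adaptor. Those that rose with DEX were the stress-inducible HSP70 genes Hspa1a (1.19) and Hspa1b (1.69), near-identical copies between which reads may be split, and Unc45a (0.46), a myosin co-chaperone. The list's median was -0.04 with DEX and -0.19 with DEX + RU-486, beside 0.06 and 0.05 over all genes. None of the 20 passed in a treatment contrast over all libraries of batch 2. Between libraries of RIN below 3 and of 6 or above in that batch, 11 of the 20 were higher and 3 lower, up to 2.98 for Hspa1b. Of all genes, 28.4% were higher and 26.8% lower in that comparison by RIN. Single libraries stood far above their group: Hspa1b had a median of 19.6 CPM and a highest value of 70.9 CPM in batch 1 DEX, and 12.8 and 153 CPM in batch 2 control. With libraries of RIN 6 or above, Hspa1a (0.80) and Hspa1b (1.22) rose with DEX in batch 1 by less than with all libraries.

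**Figure D4:**
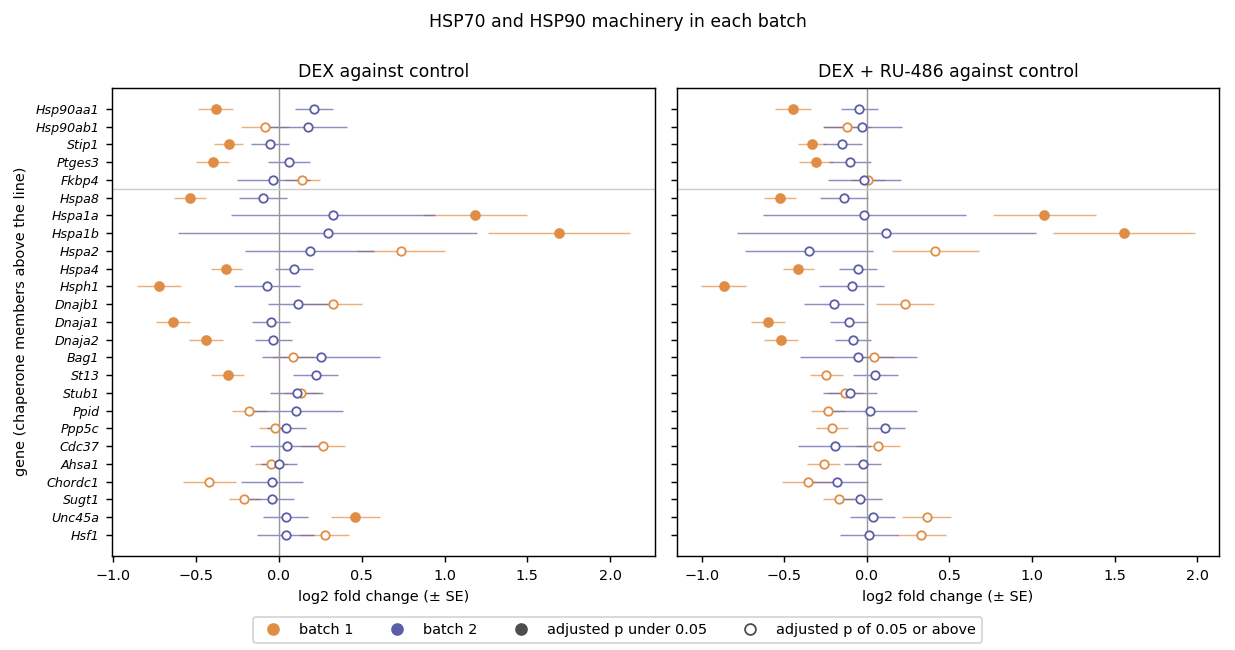
Log2 fold changes (± SE) against control of the 5 chaperone members, above the line, and of the 20 HSP70 and HSP90 machinery genes, in batch 1 and batch 2, filled where the adjusted p is under 0.05. Hsph1 (-0.72), Dnaja1 (-0.64) and Hspa8 (-0.54) are the lowest with DEX in batch 1, and Hspa1b (1.69) is the highest.

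Among genes of steroid activation, inactivation and export, 3 of 6 could be tested, and 2 rose with DEX in batch 1: Abcb1b (1.17, and 1.38 with DEX + RU-486), a drug efflux pump that also exports glucocorticoids, and H6pd (0.46), which supplies NADPH to the Hsd11b1 enzyme. None of the 3 testable genes of the corticotropin-releasing hormone system other than Crhr1 passed. Of 3 testable other steroid receptors, Pgr, the progesterone receptor, fell with DEX (-0.60). Of 9 receptor coregulators, Ncoa1 (-0.48 with DEX, -0.36 with DEX + RU-486) and Ncor1 (-0.32 with DEX) fell, a coactivator and a corepressor of nuclear receptors. The 2 HSP90 genes of other compartments did not pass. None of the genes on these lists passed in a treatment contrast over all libraries of batch 2. With DEX in batch 1, 8.99% of all genes rose and 9.99% fell, and nothing particular to lists this short is read from single calls.

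Patterns over the 36 libraries were described by Pearson correlation of log2 CPM after the mean of each batch was removed. Such coefficients also reflect depth and RIN shared within a batch. Hsp90aa1 was most like Serbp1 (0.865), Dnajc2 (0.823) and Hspa4 (0.815). Its correlation was 0.722 with Stip1 and 0.679 with Ptges3, but 0.311 with Hsp90ab1, which became 0.824 in the 28 libraries of RIN 6 or above. Nr3c1 was most like Gm21955 (0.760), Hdac11 (0.753) and Cntnap5a (0.742), and Nr3c2 most like Zfp319 (0.750), Tsc2 (0.697) and Epb41l1 (0.696). The receptors correlated with each other at 0.485.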

How the data were processed

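The authors deposited 1 table of whole-number read counts per gene in 36 libraries, not normalized, from total RNA and poly(A) selection according to the labels (the study's methods describe a total RNA library). According to the submitters' processing notes the tools were HISAT2 2.1.0 and Subread 1.5.0-p2 with GRCm38. The study's methods also describe mapping to a composite genome that adds ribosomal protein mRNAs, with no mismatches and with reads of multiple loci dropped. The sources used here do not say whether the table comes from that mapping or a standard one. They also do not give its annotation or whether counting used strand. Of 55492 entries 5 are transgene names, left out here, and 55227 matched GENCODE M21, from which symbols and 1-based coordinates were taken.

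Genes with a mean count above 5 were tested with the edgeR 4.0.16 quasi-likelihood test in R 4.3.3, with TMM normalization, all 3 groups in each fit, and batch as a covariate in the fit of both batches. The study used DESeq2, run here (version 1.42.0) as an alternative. P-values were adjusted by Benjamini-Hochberg over all 20355 genes tested, and calls were made at an adjusted p under 0.05. SE is the log2 fold change divided by the square root of F. CPM were scaled by TMM, and log2 CPM used a prior count of 2. Alternatives were RLE factors, other filters, RIN as a covariate, libraries of RIN 6 or above, 2 groups only, and each library left out. Scripts were tested on simulated data. Named pathway genes were those past the threshold, smallest p first. The members and lists were chosen with earlier results of these data known. Depth was 12.1 to 82.4 M counts.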

Additional observations from a re-analysis of the deposited data

Results flagged for a closer look

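Gaps and ranges were taken on log2 CPM (prior count of 2), whereas the values printed below are CPM. Of 54 groups of 6 libraries (9 genes, 3 treatments, 2 batches), 7 held a library standing apart from its group. The gap of that library to the next, divided by the range of the group, was above Dixon's 95% critical value of 0.625. By chance about 1 in 20 groups would hold one. Hsp90ab1 stood high in DEX replicate 12 of batch 1 (2241 CPM, RIN 3.9), where the other libraries measured 1311 to 1498 CPM. Nr3c2 stood low in DEX replicate 11 of batch 1 (4.07 CPM, RIN 7.8, others 7.84 to 11.2 CPM). DEX + RU-486 replicate 18 of batch 1, of RIN 5.6, stood low for both Crhr1 (1.69 CPM, others 3.88 to 6.08 CPM) and Ptges3 (93.7 CPM, others 104 to 110 CPM). Nr3c1 stood high in control replicate 1 of batch 1 (23.8 CPM, RIN 7.8, others 10.4 to 13.4 CPM). In batch 2, Crhr1 stood low in control replicate 19 (0.178 CPM, 3 counts, RIN 2.7, others 1.96 to 3.09 CPM) and Stip1 in control replicate 20 (47.6 CPM, RIN 1.8, others 63.1 to 73.8 CPM). Of the 7, 5 came from libraries of RIN below 6 and 2 from libraries of RIN 7.8. The part of RIN in them was not tested.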

How the results depend on the processing

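Of 372 recomputed values of single members (each library left out aside), 337 kept their direction and their side of the threshold, 6 came to pass it, 5 no longer passed it and 24 changed sign. No paired analysis was possible because the replicate numbers are unique to each library and so pair no samples across groups. The 5 lost calls were all in batch 1, 4 of them with RIN as a covariate, a fit chosen after seeing the data: with DEX, Hsp90aa1 (-0.44), Stip1 (-0.37) and Ptges3 (-0.28), and with DEX + RU-486, Ptges3 (-0.21, and -0.25 with RIN of 6 or above).

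For DEX against control over both batches, the 5 genes called became 457 with DESeq2, 455 with RIN as a covariate, 4012 with libraries of RIN 6 or above (1 member), 1 with only the groups compared and 0 without the batch covariate. For DEX + RU-486 against control, 0 genes became 121 with DESeq2 (1 member, Stip1, -0.22, adjusted p = 0.028), 155 with RIN as a covariate and 1804 with RIN of 6 or above (2 members). For DEX + RU-486 against DEX, 0 became 2 with DESeq2 over both batches and 2 in batch 1. In batch 1, RIN as a covariate left 565 of 3862 genes and 0 members with DEX, and 529 of 3131 genes with DEX + RU-486. With RIN of 6 or above, batch 2 gave 115 genes for DEX, 1 for DEX + RU-486 and 317 between them, and the difference between batches gave 866 (2 members), 389 and 1 genes. The causes of these moves were not tested.

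The 24 sign changes, none past the threshold in either setting, fell on 5 members. With RIN of 6 or above over both batches, Hsd11b1 was 0.52 with DEX and 0.34 with DEX + RU-486, Fkbp4 -0.013 and Hsp90ab1 -0.083 with DEX. With RIN as a covariate over both batches, Fkbp4 was -0.12 and Hsp90ab1 -0.14 with DEX, and Fkbp4 0.0065 between treated groups. For DEX + RU-486 against control, Crhr1 was -0.048 without the batch covariate, and Fkbp4 0.0135 with DESeq2, 0.0135 with RLE factors and 0.041 with at least 10 counts in every library. In batch 1 with RIN as a covariate, Crhr1 was 0.18 and Fkbp4 -0.098 with DEX, Crhr1 0.39 and Fkbp4 -0.19 with DEX + RU-486, and Hsp90ab1 0.045 between treated groups. With RIN of 6 or above in batch 1, Fkbp4 was -0.027 with DEX + RU-486 and Nr3c1 0.032 between treated groups. With RIN of 6 or above in batch 2, Crhr1 was -0.41 and Hsd11b1 0.091 with DEX, and Hsd11b1 -0.34 between treated groups. For the difference between batches, it gave Fkbp4 0.016 for DEX + RU-486, and Crhr1 0.38 and Hsd11b1 -0.26 between treated groups.

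Each library was also left out in turn. Over both batches, genes called with DEX ran from 0 to 1617 (members 0 to 1), the highest without control replicate 20, where Stip1 passed (-0.24, adjusted p = 0.022), and 324 without control replicate 19. DEX + RU-486 against control ran from 0 to 420 (members 0 to 1), again the highest without control replicate 20, with Stip1 at -0.29 (adjusted p = 0.016). In batch 1, 2758 to 4566 genes and 3 members were called with DEX and 1847 to 3838 genes and 2 to 3 members with DEX + RU-486, the lowest without control replicate 2, and 0 to 1 genes between treated groups. Ptges3 with DEX + RU-486 in batch 1 no longer passed in 8 of 18 such fits (adjusted p up to 0.089). Signs changed for these values, none past the threshold. Over both batches with DEX, Fkbp4 ran from -0.048 to 0.089 and Hsp90ab1 from -0.069 to 0.076. With DEX + RU-486, Crhr1 ran from -0.098 to 0.12 and Fkbp4 from -0.081 to 0.034. Between treated groups, Hsd11b1 ran from -0.23 to 0.24, Fkbp4 from -0.13 to 0.029 and Ptges3 from -0.062 to 0.0038. In batch 1 with DEX + RU-486, Nr3c2 ran from -0.35 to 0.13 and Fkbp4 from -0.055 to 0.034. Between treated groups of batch 1, Nr3c1 ran from -0.20 to 0.019, Hsd11b1 from -0.48 to 0.19, Hsp90ab1 from -0.15 to 0.097 and Stip1 from -0.048 to 0.0074. In batch 2 with DEX, Crhr1 ran from -0.18 to 0.19, Fkbp4 from -0.23 to 0.061 and Hsp90ab1 from -0.013 to 0.28. With DEX + RU-486 there, Nr3c1 ran from -0.042 to 0.085, Fkbp4 from -0.17 to 0.080 and Hsp90ab1 from -0.16 to 0.075. Between its treated groups, Hsd11b1 ran from -0.20 to 0.50 and Fkbp4 from -0.14 to 0.22.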
